A study of Rattus norvegicus with 12 samples.

Results

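The kidneys of the FHH.Pkhd1 rat were compared with those of 3 other strains on Affymetrix 3' expression arrays, and the results concern the genes for which the FHH.Pkhd1 pool lay beyond all 3 other pools on the same side. FHH.Pkhd1 contributed 3 of the 12 arrays in the series, and the FHH, SD and PCK strains contributed 3 each. FHH.Pkhd1 is the congenic strain FHH.PCK-(D9Rat35-D9Rat70)/Mcwi, in which a segment of chromosome 9 from the PCK rat, holding the mutated Pkhd1 gene, was placed on the inbred Fawn Hooded Hypertensive (FHH) background. PCK is a strain of Sprague Dawley descent that carries the same Pkhd1 mutation, and SD is the outbred Sprague Dawley rat without it. FHH therefore shares its background with FHH.Pkhd1, and PCK shares the transferred segment. All rats ate the 5LOD diet and were sampled at 30 days of age. RNA from the kidneys of 6 animals per strain was pooled, and each pool was hybridized to 3 arrays. The arrays of a pool are technical replicates of 1 RNA mixture, so every error and p-value below measures how well 2 pools were told apart and holds no spread between animals. The series title sets susceptible strains against resistant ones, and the FHH.Pkhd1 pool is the one that combines the mutated segment with the FHH background.

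Pkhd1 encodes fibrocystin, a membrane protein of the primary cilium of tubule and bile duct cells, and its loss causes autosomal recessive polycystic kidney disease in people and cysts in the PCK rat. Several of the largest differences in the FHH.Pkhd1 pool were in genes with which the proximal tubule takes up, modifies and excretes organic molecules. Uptake carriers of the Slco and Slc22 families bring steroid conjugates, bile acids, drugs and organic cations into the cell. Cytochromes P450, aldo-keto reductases and UDP-glucuronosyltransferases then oxidize, reduce or conjugate them, and efflux pumps such as Abcc2 export the products. Many of these genes differ between male and female rodents and depend on androgen, growth hormone or both.

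Each gene was represented by its brightest probe set on average, and the mean of the FHH.Pkhd1 arrays was set against each of the other 3 pool means on the deposited log2 scale. Of 10883 genes tested, 2297 had their lowest mean in FHH.Pkhd1 and 4072 had their highest there, before any threshold. A gene was called when all 3 differences had an adjusted p under 0.05 (limma, Benjamini-Hochberg) and the smallest of them reached 1.5-fold, a log2 difference of 0.585. By this rule 57 genes were lower in FHH.Pkhd1 than in each other pool, which is 0.524% of the genes tested, and 23 were higher, 0.211%. For every one of the 57, all 3 FHH.Pkhd1 arrays lay below the other 9. The same held for 739 of all 2297 genes with their lowest mean in FHH.Pkhd1. For all 23 higher genes the 3 arrays lay above the other 9, beside 1388 of the 4072 with their highest mean there. The limit on size favours such genes, because the arrays of a pool lay close together. The smallest difference was at least 2-fold for 17 of the lower genes and for 3 of the higher genes. The median of the smallest difference was -0.81 over the lower genes and 0.73 over the higher genes. The calls stop at a chosen size, and values run on across it. Rnls (-0.59), Ralyl (-0.59) and Tnfrsf11b (-0.59) stood just inside it on the lower side, and Emc1 (-0.58) and Orai3 (-0.58) just outside. On the higher side Erbb2 (0.60) and Bmp3 (0.60) were just inside, and Mcm6 (0.58) and Ergic1 (0.57) just outside. The 3 comparisons share the FHH.Pkhd1 arrays and are not independent of each other.

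The same rule applied to the other pools gave 3 lower and 5 higher genes for FHH, 50 and 51 for SD, and 63 and 66 for PCK. These counts share arrays, and their differences were not tested. For FHH.Pkhd1 the balance of lower to higher genes turned with the limit on size. Lower genes outnumbered higher ones at 1.5-fold (57 to 23), but with adjusted p alone and no fold limit 558 were lower and 848 higher. At an unadjusted p under 0.05 in all 3 comparisons, again with no fold limit, 735 of the 10883 genes (6.75%) were lower and 1297 (11.9%) higher; this is the looser limit used for the gene lists. With the most variable probe set of each gene in place of the brightest, 70 were lower and 58 higher at 1.5-fold. Among the 57 lower genes FHH was the nearest pool for 43 (75.4%), SD for 8 and PCK for 6. Over all 2297 genes with their lowest mean in FHH.Pkhd1, FHH was nearest for 53.9%. Among the 23 higher genes FHH was nearest for 14 (60.9%), against 65.9% of the 4072 genes with their highest mean in FHH.Pkhd1.

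The arrays of a pool were close to each other. Over all probe sets the correlation between arrays was 0.9973 to 0.9985 within pools and 0.9862 to 0.9959 between them, and the FHH.Pkhd1 arrays were nearest to FHH (0.9946 to 0.9959). The median SD of a gene over the 3 arrays was 0.05 in FHH.Pkhd1. No depth is defined for arrays, and their number limits the precision. A gene was taken as detected in a pool when its mean was at least 5.75, a level that 40% of all values lie under; it is a filter and not a measured background. The poly-A spike-in controls, bacterial RNAs added to each sample before labelling, were lowest in FHH.Pkhd1, at 9.23 ± 0.09 (mean of 27 probe sets, SD over 3 arrays), against 10.21 ± 0.03 in FHH, 9.64 ± 0.07 in SD and 9.95 ± 0.06 in PCK. The part of this offset in the gene differences was not tested. Proximal tubule genes were among the brightest in all pools, with Slc34a1 at 13.63, Lrp2 at 12.71 and Miox at 13.68 in FHH.Pkhd1. The labels used here give no sex. The Y-linked Eif2s3y stood at 9.51 ± 0.04 in FHH.Pkhd1 (SD over 3 arrays) and 9.57, 9.66 and 9.85 in FHH, SD and PCK, and all 4 Xist probe sets lay under the detection level in every pool, at 2.72 to 3.67.

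The gene farthest from its nearest pool was Slco1a1, an organic anion uptake carrier that moves steroid conjugates and bile acids. Its log2 signal was 3.92, 3.63 and 3.78 on the FHH.Pkhd1 arrays, 7.97, 7.98 and 7.96 on the FHH arrays, 10.19, 10.21 and 10.28 on the SD arrays and 8.54, 8.57 and 8.62 on the PCK arrays. The FHH.Pkhd1 arrays were all below the detection level and the other 9 far above it. The differences were -4.19 against FHH, -6.45 against SD and -4.79 against PCK (each ± 0.06, SE), and the largest of the 3 adjusted p-values was 4.48e-13 (limma). No fold is given for genes with a pool below the detection level. In 14 of the 57 lower genes the FHH.Pkhd1 mean was below that level. These genes passed the filter on low values through other pools alone, so they could not have been called higher.

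Ugt2b35, a UDP-glucuronosyltransferase that joins glucuronic acid to steroids and drugs, showed the same pattern. Its signal was 3.96, 3.61 and 3.78 on the FHH.Pkhd1 arrays, 7.37, 7.04 and 6.96 on the FHH arrays, 11.11, 11.09 and 11.11 on the SD arrays and 9.19, 9.19 and 9.34 on the PCK arrays. FHH.Pkhd1 was again below the detection level, and the other 3 pools formed 3 separate steps above it. The differences were -3.34 against FHH, -7.32 against SD and -5.46 against PCK (each ± 0.10, SE; largest adjusted p = 2.59e-10, limma).

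Cyp4a8, a cytochrome P450 of the family that hydroxylates fatty acids and arachidonic acid, stayed well above the detection level in every pool. It stood at 7.78, 7.73 and 7.92 on the FHH.Pkhd1 arrays, 11.19, 11.14 and 11.09 on the FHH arrays, 12.25, 12.29 and 12.28 on the SD arrays and 12.33, 12.18 and 12.31 on the PCK arrays. SD and PCK overlapped each other, FHH lay about 1 log2 unit beneath them, and FHH.Pkhd1 lay a further 10.1-fold beneath FHH. The differences were -3.33 against FHH, -4.46 against SD and -4.46 against PCK (each ± 0.05, SE; largest adjusted p = 1.20e-12, limma). A second Cyp4a8 probe set gave -3.22, -4.45 and -4.49 in the same order.

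Dhrs7l1, named as a member of the short-chain dehydrogenase/reductase family, read 4.80, 4.74 and 4.46 on the FHH.Pkhd1 arrays, 8.08, 8.13 and 8.07 on the FHH arrays, 10.41, 10.34 and 10.37 on the SD arrays and 9.47, 9.54 and 9.66 on the PCK arrays. It fell below the detection level in FHH.Pkhd1 alone, with differences of -3.43 against FHH, -5.71 against SD and -4.89 against PCK (each ± 0.07, SE).

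The 300 bases around the start of 3 of these genes, and of a further called gene, Kap, are shown because the genes were lower together in the FHH.Pkhd1 pool and because rodent kidney genes of this kind are known targets of steroid receptors, STAT5 and HNF1. The windows run from 250 bases before to 50 bases after the start (RefSeq, GRCr8), 5′ to 3′ on the gene's strand. Capitals mark a steroid receptor half-site (AGAACA, or TGTTCT when read from the other strand), a STAT5 motif (TTCNNNGAA) or an HNF1 half-site (GTTAAT).
Slco1a1, chr4:176681943-176682242, minus strand: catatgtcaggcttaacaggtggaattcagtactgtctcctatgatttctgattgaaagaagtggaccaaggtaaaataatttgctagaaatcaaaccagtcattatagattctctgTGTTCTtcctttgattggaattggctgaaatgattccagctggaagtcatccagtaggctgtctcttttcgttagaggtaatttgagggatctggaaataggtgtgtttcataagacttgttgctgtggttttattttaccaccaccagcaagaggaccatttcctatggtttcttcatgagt
Ugt2b35, chr14:21208191-21208490, plus strand: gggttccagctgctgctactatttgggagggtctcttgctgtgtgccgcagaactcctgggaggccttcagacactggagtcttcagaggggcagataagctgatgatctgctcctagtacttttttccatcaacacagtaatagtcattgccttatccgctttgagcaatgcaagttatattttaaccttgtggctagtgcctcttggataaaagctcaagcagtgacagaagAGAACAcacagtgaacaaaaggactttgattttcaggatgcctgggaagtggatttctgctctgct
Cyp4a8, chr5:133970177-133970476, minus strand: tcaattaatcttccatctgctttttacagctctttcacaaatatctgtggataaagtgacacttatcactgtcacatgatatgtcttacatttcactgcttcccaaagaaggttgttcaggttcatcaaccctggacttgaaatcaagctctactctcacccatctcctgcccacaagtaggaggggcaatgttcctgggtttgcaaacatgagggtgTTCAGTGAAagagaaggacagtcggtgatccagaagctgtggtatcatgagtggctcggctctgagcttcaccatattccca
Kap, chr4:168408983-168409282, minus strand: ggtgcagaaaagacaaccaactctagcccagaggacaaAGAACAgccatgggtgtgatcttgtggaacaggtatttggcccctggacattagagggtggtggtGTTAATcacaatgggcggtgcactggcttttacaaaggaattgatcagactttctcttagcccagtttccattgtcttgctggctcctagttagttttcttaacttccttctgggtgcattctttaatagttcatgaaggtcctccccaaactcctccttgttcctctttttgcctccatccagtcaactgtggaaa
Slco1a1, Ugt2b35 and Kap each held 1 steroid receptor half-site, Kap also held 1 HNF1 half-site, and Cyp4a8 held 1 STAT5 motif. The motifs were chosen after the genes were known, and both strands were searched in the 71 of 80 called genes with a listed window. AGAACA occurred in 9 of the 50 lower genes with a window (18%), against 21.6% of all 27457 genes with one. TTCNNNGAA occurred in 8 of the 50 (16%), against 9.39% of all genes, and GTTAAT in 6 of the 50 (12%), against 8.12%. Counted by window, the 3 motifs occurred in 20.7%, 8.87% and 7.45% of all 33469 windows. Among the 21 higher genes with a window each of the 3 motifs occurred in 2. None of these shares was tested, and a match describes letters in a window and shows no binding.

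**Figure D1:**
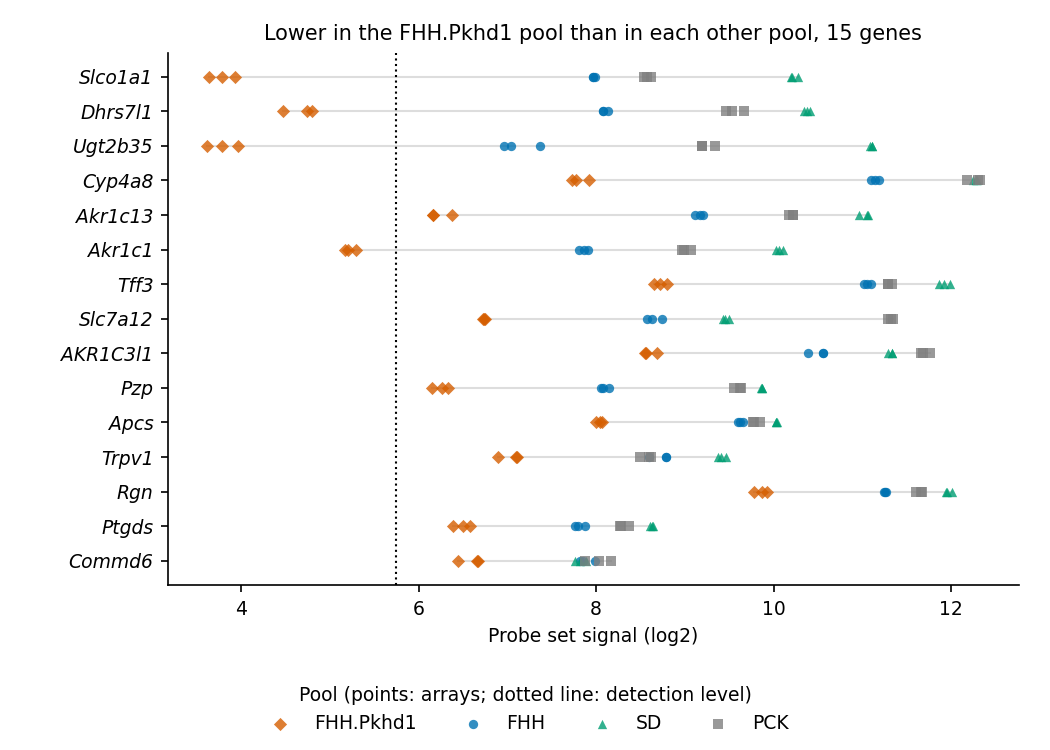
Log2 probe set signal (horizontal axis) on each of the 12 arrays for the 15 named genes with the largest lower difference in FHH.Pkhd1; points are arrays and the dotted line is the detection level of 5.75. In every row the 3 FHH.Pkhd1 arrays lie left of the other 9, and for Slco1a1, Dhrs7l1, Ugt2b35 and Akr1c1 they lie left of the dotted line.

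Of the Akr1c family of aldo-keto reductases, which reduce steroids, prostaglandins and xenobiotic carbonyls, 3 members were called lower. Akr1c13 read 6.16, 6.16 and 6.37 on the FHH.Pkhd1 arrays, 9.21, 9.17 and 9.12 on the FHH arrays, 11.07, 10.97 and 11.05 on the SD arrays and 10.17, 10.21 and 10.22 on the PCK arrays, and the FHH.Pkhd1 arrays were the 3 lowest by 7.64-fold or more on pool means. Akr1c1 read 5.16, 5.30 and 5.20 on the FHH.Pkhd1 arrays, 7.91, 7.80 and 7.86 on the FHH arrays, 10.10, 10.03 and 10.06 on the SD arrays and 8.99, 9.07 and 8.97 on the PCK arrays, with FHH.Pkhd1 below the detection level. AKR1C3l1 read 8.69, 8.56 and 8.56 on the FHH.Pkhd1 arrays, 10.56, 10.39 and 10.55 on the FHH arrays, 11.34, 11.29 and 11.33 on the SD arrays and 11.66, 11.76 and 11.68 on the PCK arrays. The smallest differences of the 3 genes were -2.93 (± 0.06, SE), -2.64 (± 0.04) and -1.90 (± 0.05), each against FHH. In all 3 genes FHH was the second lowest pool. SD was highest for Akr1c13 and Akr1c1, and PCK for AKR1C3l1. These genes are close paralogs, and a probe set of one may read transcripts of another, so the members cannot be fully told apart here.

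Within these families the differences were unequal. Of the Slco1a carriers, Slco1a3, Slco1a4 and Slco1a6 also had their lowest mean in FHH.Pkhd1, but with smallest differences of -0.11, -0.14 and -0.22 they were not called, and Slco1a5 did not pass the filter. Slco1a3 did differ by -1.15 from SD and -1.14 from PCK, and its value lay close to that of FHH. Cyp4a3, the brightest Cyp4a gene, stood at 12.51 in FHH.Pkhd1 against 12.67 to 13.19 in the other pools (smallest difference -0.15, not called), and Cyp4a1 lay between the other pools at 10.65. In the Akr1c family Akr1c19 had a smallest difference of -0.33 and Akr1c15 lay between the other pools; neither was called. Of the Ugt2b genes, Ugt2b7 was called lower (-0.95 ± 0.12, SE), though its means of 4.70 in FHH.Pkhd1 and 5.64 in FHH both lay under the detection level. Ugt2b1, Ugt2b10, Ugt2b15 and Ugt2b34l1 were below it in every pool.

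**Figure D2:**
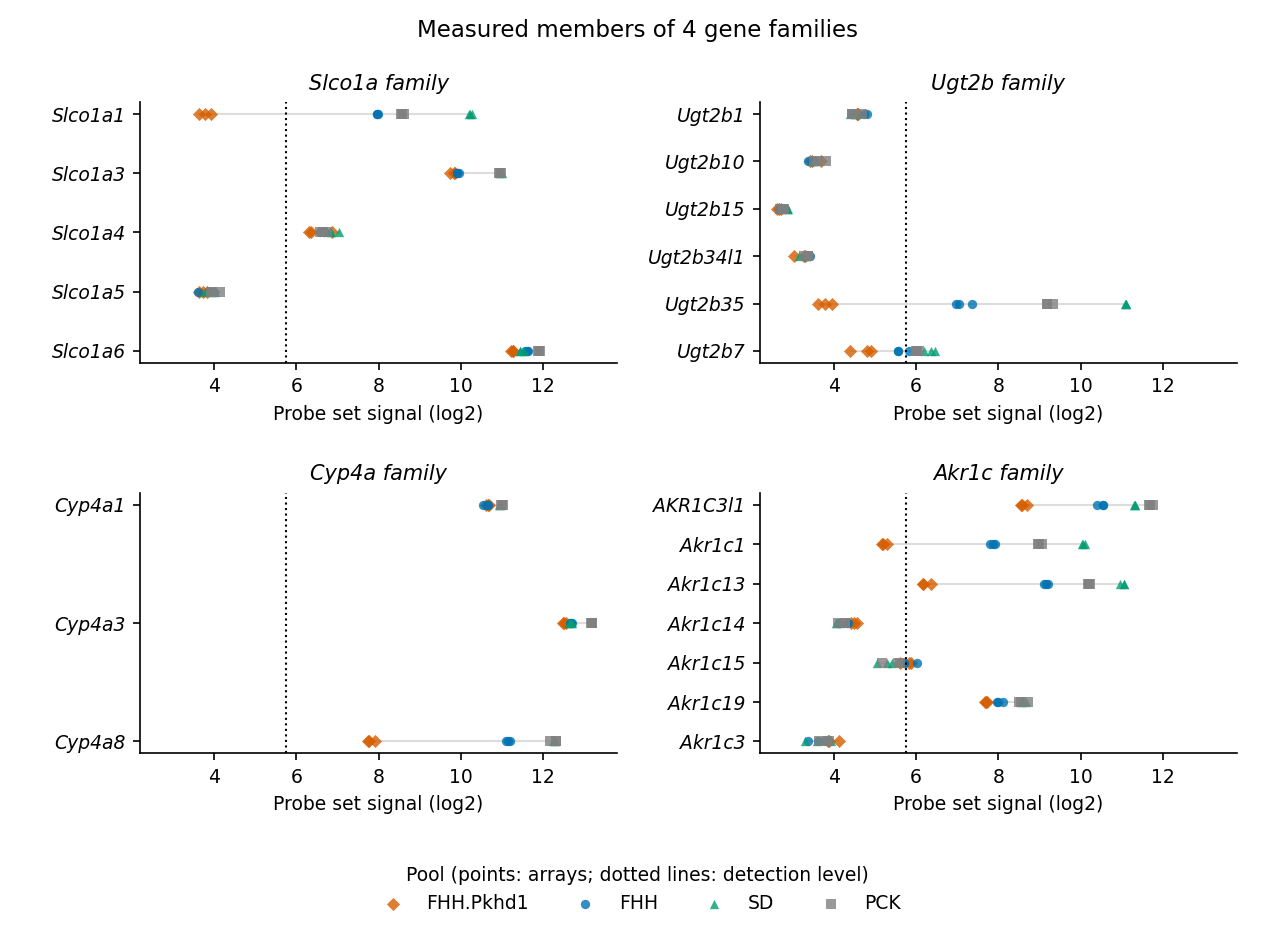
Log2 probe set signal (horizontal axes) on each array for the measured members of the Slco1a, Ugt2b, Cyp4a and Akr1c families; points are arrays and dotted lines mark the detection level of 5.75. Slco1a1, Ugt2b35, Cyp4a8, Akr1c1, Akr1c13 and AKR1C3l1 spread over several log2 units with FHH.Pkhd1 lowest, while relatives such as Slco1a6, Cyp4a1 and Cyp4a3 stay within a narrow range.

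Other carriers were called at smaller sizes. Slc22a2 (OCT2), the basolateral organic cation transporter of the proximal tubule, read 8.97, 8.80 and 9.06 on the FHH.Pkhd1 arrays, 9.79, 9.85 and 9.73 on the FHH arrays, 10.57, 10.52 and 10.55 on the SD arrays and 10.35, 10.31 and 10.33 on the PCK arrays. Its smallest difference was -0.84 ± 0.06 (SE), or 1.79-fold. Abcc2 (MRP2), an apical efflux pump for conjugates, had a smallest difference of -0.66 ± 0.09 (SE) and was no longer called without SD replicate 3. With Slco1a1 these were 3 of the 24 organic anion and cation transporters tested, none was called higher, and the medians of the 24 differences were -0.03 against FHH, -0.12 against SD and -0.02 against PCK. Over all genes tested the same medians were 0.01, 0.05 and 0.06, and 0.524% were called lower and 0.211% higher. Slco1a1 was a marker given for this pool beforehand. Of the 22 listed transporters that earlier results of these data had not named, 2 were called lower and 0 higher. Slc22a8 (OAT3), an organic anion uptake carrier, had its highest mean in FHH.Pkhd1 with a smallest difference of 0.32 and was not called.

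Among amino acid transporters, 2 of 24 tested were called lower and none higher, beside 0.524% and 0.211% of all genes. Of the 23 that earlier results of these data had not named, 1 was called lower and 0 higher. Slc7a12, a neutral amino acid transporter of the kidney, read 6.75, 6.73 and 6.72 on the FHH.Pkhd1 arrays, 8.63, 8.57 and 8.74 on the FHH arrays, 9.43, 9.46 and 9.49 on the SD arrays and 11.35, 11.33 and 11.29 on the PCK arrays. The FHH.Pkhd1 arrays were nearly level with each other and their mean lay 3.77-fold beneath that of FHH, while PCK stood above the rest. Slc1a4, a neutral amino acid transporter, read 5.22, 5.54 and 5.52 in FHH.Pkhd1, below the detection level, and 6.30 to 6.74 on the other 9 arrays.

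Further genes among the 15 largest lower differences are given next, with Azgp1 beside them. Tff3, a trefoil peptide of mucosal surfaces, read 8.80, 8.71 and 8.65 on the FHH.Pkhd1 arrays, 11.10, 11.03 and 11.05 on the FHH arrays, 11.99, 11.87 and 11.92 on the SD arrays and 11.33, 11.29 and 11.30 on the PCK arrays. The pools did not overlap, and FHH.Pkhd1 was 5.05-fold beneath FHH, the nearest. Pzp, a protease inhibitor of the alpha-2-macroglobulin family, read 6.15, 6.26 and 6.33 in FHH.Pkhd1 and 8.05 to 9.87 on the other arrays, with differences of -1.85 against FHH, -3.62 against SD and -3.36 against PCK (each ± 0.05, SE). Apcs, the pentraxin serum amyloid P, read 8.03 ± 0.03 (SD over 3 arrays) against 9.60 to 10.03. Its other 3 pools lay within 0.40 of each other, while FHH.Pkhd1 stood -1.59 ± 0.03 (SE) from the nearest. Ptgds, a prostaglandin D synthase, read 6.57, 6.50 and 6.38 against 7.76 to 8.64. Azgp1, the zinc-binding glycoprotein, was at 5.49, 5.52 and 5.23 in FHH.Pkhd1, below the detection level, against 6.26 to 7.97. Rgn, a calcium-binding lactonase also called SMP30, read 9.87, 9.78 and 9.92 against 11.24 to 12.02, a 2.63-fold step from FHH. Trpv1, the capsaicin-gated cation channel, read 7.10, 6.89 and 7.11 against 8.50 to 9.46, and here PCK and not FHH was the nearest pool (-1.54 ± 0.07, SE). A second detected Trpv1 probe set gave -1.40.

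Genes known in rodent kidney for dependence on sex or androgen made up the list with the most calls, 9 lower and 0 higher of 28 tested. Over all genes 0.524% were called lower and 0.211% higher. Of the 28, 17 had their lowest mean in FHH.Pkhd1 and 4 their highest, beside 2297 and 4072 of all 10883 genes. The medians of the 28 differences were -0.27 against FHH, -0.26 against SD and -0.42 against PCK, beside 0.01, 0.05 and 0.06 over all genes. The list was drawn up with earlier results of these data known and is not independent evidence of a direction; of the 21 members that those results had not named, 3 were called lower and 0 higher. These 3 were Slc22a2, Kap and Odc1. Kap, an abundant androgen-regulated protein of the proximal tubule, read 12.97, 13.00 and 13.04 on the FHH.Pkhd1 arrays, 13.76, 13.76 and 13.78 on the FHH arrays, 13.89, 13.94 and 13.93 on the SD arrays and 13.71, 13.72 and 13.74 on the PCK arrays. The FHH.Pkhd1 arrays were the 3 lowest, although the signal was near the top of the scale, and the differences were -0.76 against FHH, -0.91 against SD and -0.72 against PCK (each ± 0.03, SE; largest adjusted p = 1.10e-08, limma). Odc1, ornithine decarboxylase, the first enzyme of polyamine synthesis, read 10.99, 10.93 and 10.93 on the FHH.Pkhd1 arrays, 11.72, 11.66 and 11.69 on the FHH arrays, 12.19, 12.13 and 12.07 on the SD arrays and 12.22, 12.29 and 12.23 on the PCK arrays. FHH.Pkhd1 lay 1.67-fold beneath FHH (largest adjusted p = 9.62e-08, limma).

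The members of this list that were not called included the hormone receptors Prlr (smallest difference -0.13) and Ghr (-0.02), the organic anion carrier Slc22a7 (-0.27), Slc7a13 (-0.30) and Acsm3 (-0.23), each with its lowest mean in FHH.Pkhd1. Igf1, Hao2, Slc22a6 and Gusb lay between the other pools. For Acsm3 the differences from SD and PCK were much larger than the one from FHH, as the plot of the listed genes shows.

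**Figure D3:**
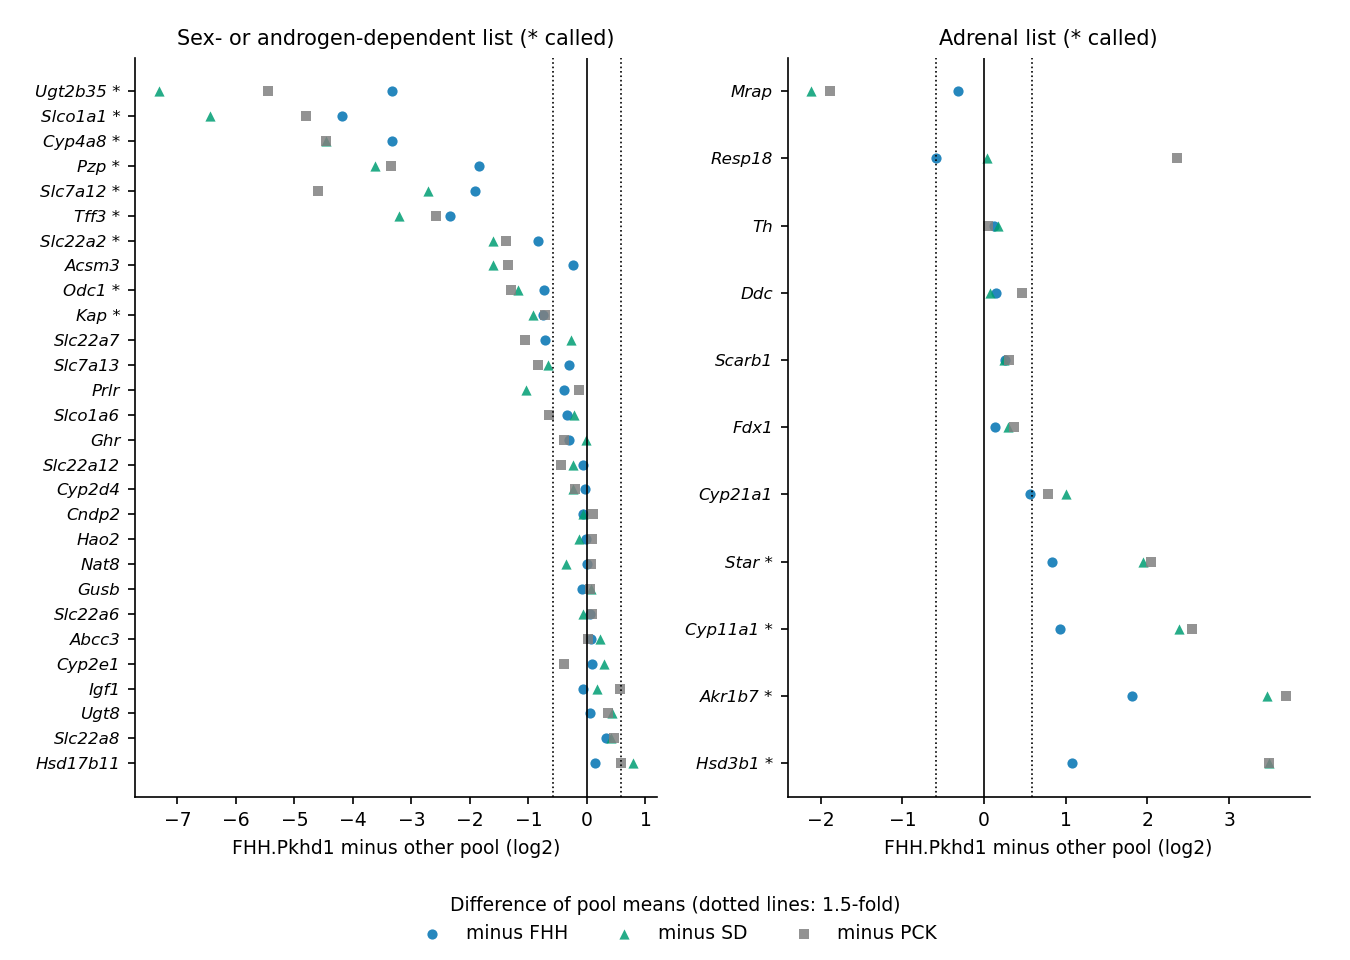
Difference of the FHH.Pkhd1 mean from each other pool mean (log2, horizontal axes) for the tested genes of the sex- or androgen-dependent list and of the adrenal list; circles, triangles and squares are the differences from FHH, SD and PCK, dotted lines mark 1.5-fold, and asterisks mark called genes. The 9 called genes of the first list lie left of the dotted line for all 3 pools, and 4 of the second list lie right of it, with the FHH difference the smallest in 8 and 4 of them.

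Metabolic enzymes of the mitochondrion and peroxisome gave single calls. Eci2, an enoyl-CoA isomerase of fatty acid oxidation, read 8.82, 8.88 and 8.97 in FHH.Pkhd1 and 9.56 to 10.41 elsewhere, with SD the nearest pool (-0.73 ± 0.05, SE). Together with Cyp4a8 it made 2 lower calls among 35 fatty acid oxidation genes and PPARA targets, and Acadsb, an acyl-CoA dehydrogenase of branched-chain substrates, made 1 higher call (0.73 ± 0.18, SE; largest adjusted p = 0.00548, limma). Acadsb was the called gene with the largest adjusted p, and all 3 other pool means were below the detection level. None of the 32 members of the fatty acid oxidation list that earlier results had not named was called. Over all genes 0.524% were called lower and 0.211% higher. Glutathione conjugation (26 genes tested) and targets of NRF2, the regulator of the oxidant response (21 genes), had no called gene (limma). At the looser limit 5 of the 26 and 4 of the 21 were lower and 2 and 1 higher, beside 6.75% lower and 11.9% higher over all genes. Gclc and Gclm, the subunits of the enzyme that starts glutathione synthesis, had smallest differences of -0.39 and -0.32, with their lowest means in FHH.Pkhd1.

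In some of the called genes the other 3 pools were almost level and FHH.Pkhd1 alone stood apart. The distance to the nearest pool exceeded the whole range of the other 3 means in 44 of the 57 lower genes. It did so in 587 of the 2297 genes with their lowest mean in FHH.Pkhd1, and large distances were selected by the call. The other pools were not level in all 44, which include Slco1a1 (range 2.26) and Dhrs7l1 (2.28). Examples with nearly level other pools follow. Commd6, a COMM domain protein, read 6.44, 6.66 and 6.65 in FHH.Pkhd1 and 7.76 to 8.17 on the other 9 arrays, with the other means within 0.21 of each other. Rbbp9, a serine hydrolase that binds the retinoblastoma protein, read 5.88, 6.09 and 6.01 against 6.93 to 7.17, with the other means within 0.10, and lost its call when its probe sets were averaged. Qng1 read 8.81, 8.79 and 8.86 against 9.58 to 9.77, but its other detected probe set lay between the other pools, so the 2 sets of that gene disagree. Smim7, a small membrane protein, read 8.43, 8.43 and 8.45 against 9.08 to 9.21, and its other probe set gave -0.78. Proc, the precursor of the anticoagulant protein C, was of the opposite kind, with a smallest difference of -0.68 and a range of 1.76 among the other pools.

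**Figure D4:**
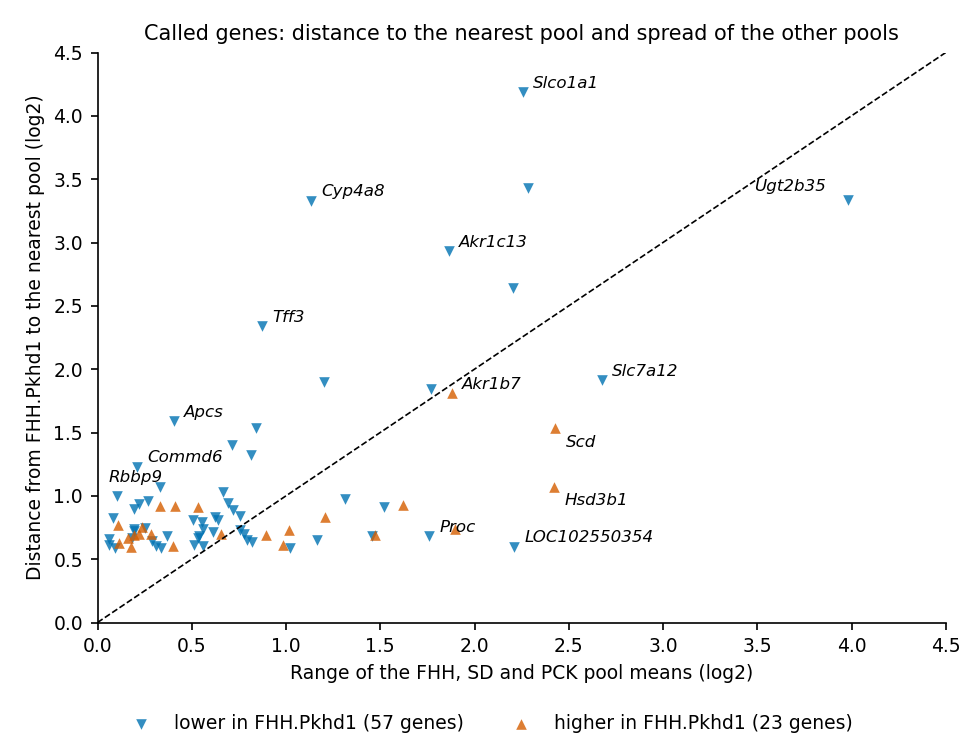
For each of the 80 called genes, the distance from the FHH.Pkhd1 mean to the nearest other pool mean (log2, vertical axis) against the range of the FHH, SD and PCK means (log2, horizontal axis); downward triangles are lower genes, upward triangles higher genes, and the dashed line marks equality. Cyp4a8, Tff3, Apcs, Commd6 and Rbbp9 lie well above the line, while Ugt2b35, Slc7a12, Scd, Hsd3b1 and Proc lie below it.

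Enzymes and receptors of amine signalling were among the other lower genes. Hnmt, which methylates histamine, read 10.24, 10.31 and 10.25 in FHH.Pkhd1 and 10.96 to 11.62 on the other arrays. Maob, which oxidizes monoamines, read 5.63, 5.72 and 5.49 against 6.21 to 7.14 and was not called without FHH.Pkhd1 replicate 3. Adra2b, an alpha-2 adrenergic receptor, read 7.32, 7.10 and 7.25 against 7.84 to 8.71, and its other 2 detected probe sets gave -0.68 and -0.23. Hnmt, Adra2b and Rnls lost their calls when probe sets were averaged. Pts, an enzyme of tetrahydrobiopterin synthesis, read 7.05, 7.33 and 7.36 against 8.20 to 8.55. Rnls, the flavoprotein renalase, had a smallest difference of -0.59 and was not called without SD replicate 1, FHH.Pkhd1 replicate 1 or FHH.Pkhd1 replicate 3. These genes form no list of their own and were grouped here after their values were seen.

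The rest of the lower genes ranged widely in role. Naglt1, a sodium-dependent glucose transporter of the kidney, read 9.30, 9.39 and 9.40 against 10.40 to 10.78, and Zfp950l1, named as a zinc finger protein, read 7.43, 7.43 and 7.51 against 8.43 to 9.22; the smallest differences were -1.07 and -1.03. Casq1, a calcium store protein of muscle, read 4.57, 4.88 and 4.96 in FHH.Pkhd1, below the detection level, against 5.61 to 7.25. Mitochondrial proteins were Mpv17 of the inner membrane (-0.75) and Etfrf1, a regulator of electron transfer flavoprotein (-0.79). Signalling proteins were the guanylate cyclase subunit Gucy1b2 (-0.81), the G protein subunit Gng13 (-0.83), the sphingosine-1-phosphate exporter Spns2 (-0.60), the growth factor carrier Igfbp3 (-0.60) and the decoy receptor Tnfrsf11b (-0.59). The galactosyltransferase B3galt5 (-0.81), the lectin Asgr2 (-0.68), the lipid transporter Abca4 (-0.61), the immunoglobulin joining chain Jchain (-0.68) and Basp1 (-0.65) were lower as well. So were the RNA-related Tprkb (-0.89), Utp6 (-0.74) and Ralyl (-0.59), the membrane protein Tmem167b (-0.90) and the unnamed locus LOC102550354 (-0.60). Among these, Asgr2 was not called without FHH.Pkhd1 replicate 2, Abca4 and Spns2 without FHH replicate 2, and Igfbp3 without FHH replicate 1. LOC102550354, Tnfrsf11b and Ralyl were not called without FHH.Pkhd1 replicate 1, and the last 2 also not without FHH replicate 1.

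Genes of steroid-producing cells led the 23 higher genes. Akr1b7, an aldo-keto reductase abundant in the adrenal cortex, read 7.55, 7.61 and 7.47 on the FHH.Pkhd1 arrays, 5.80, 5.70 and 5.69 on the FHH arrays, 4.07, 4.02 and 4.14 on the SD arrays and 3.87, 3.82 and 3.86 on the PCK arrays, and all 3 other pool means were below the detection level. Its differences were 1.81 against FHH, 3.46 against SD and 3.69 against PCK (each ± 0.05, SE; largest adjusted p = 6.55e-11, limma). Hsd3b1, a 3-beta-hydroxysteroid dehydrogenase of steroid synthesis, read 9.19, 9.38 and 9.30 on the FHH.Pkhd1 arrays, 8.29, 8.16 and 8.21 on the FHH arrays, 5.71, 5.95 and 5.75 on the SD arrays and 5.85, 5.77 and 5.77 on the PCK arrays. SD and PCK overlapped near the detection level, FHH lay above them, and FHH.Pkhd1 lay 2.1-fold above FHH. Cyp11a1, the enzyme that cleaves the cholesterol side chain, read 8.18, 8.17 and 8.10 on the FHH.Pkhd1 arrays, 7.06, 7.38 and 7.24 on the FHH arrays, 6.02, 5.64 and 5.63 on the SD arrays and 5.62, 5.68 and 5.52 on the PCK arrays, in the same order of pools. Star, which carries cholesterol into the mitochondrion, read 7.50, 7.62 and 7.48 on the FHH.Pkhd1 arrays, 6.72, 6.61 and 6.77 on the FHH arrays, 5.46, 5.70 and 5.62 on the SD arrays and 5.64, 5.45 and 5.40 on the PCK arrays. Its second probe set gave a smallest difference of 0.77. That set reached the detection level in FHH.Pkhd1 alone (6.15), so it counted as detected only through the pool where it was high.

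These 4 were the called members among 11 tested genes of the adrenal list, none of which was called lower. Akr1b7 passed the filter on low values through FHH.Pkhd1 alone, so it could only have been called higher. It is counted in the 4, in the 11 and in the medians below. Over all genes 0.211% were called higher and 0.524% lower. Medians over the 11 were 0.26 against FHH, 0.29 against SD and 0.78 against PCK. None of the 6 members that earlier results had not named was called. The mean signal of the 19 listed genes with a probe set was 6.55 to 6.59 on the FHH.Pkhd1 arrays, 6.17 to 6.22 in FHH, 5.84 to 5.91 in SD and 5.67 to 5.75 in PCK. In FHH.Pkhd1, 8 of the 19 lay under the detection level, against 10 in FHH, 11 in SD and 12 in PCK. The 8 included Cyp11b1 (3.94), Cyp17a1 (4.37) and Nr5a1 (4.63), which were below it in all 4 pools. Cyp21a1, the adrenal 21-hydroxylase, had a smallest difference of 0.56 and was not called, and Mrap, the accessory protein of the ACTH receptor, had its lowest mean in FHH.Pkhd1 (-0.32, not called). Whether adrenal tissue was present in any pool was not tested. In pooled tissue, more cells of a type and more RNA per cell cannot be told apart, and neither can fewer cells and less RNA.

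**Figure D5:**
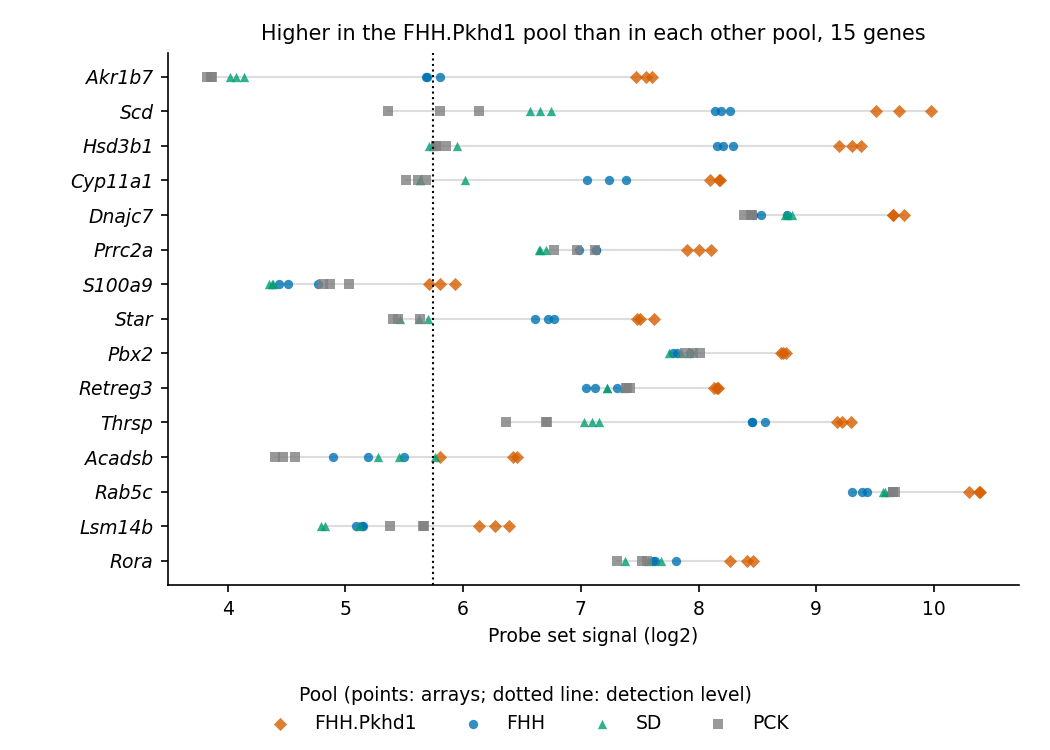
Log2 probe set signal (horizontal axis) on each of the 12 arrays for the 15 named genes with the largest higher difference in FHH.Pkhd1; points are arrays and the dotted line is the detection level of 5.75. The 3 FHH.Pkhd1 arrays lie right of the other 9 in every row, and for Akr1b7, S100a9, Acadsb and Lsm14b the other 3 pool means lie left of the dotted line.

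Lipogenic genes formed the second group. Scd, the stearoyl-CoA desaturase that makes monounsaturated fatty acids, read 9.70, 9.51 and 9.98 on the FHH.Pkhd1 arrays, 8.19, 8.14 and 8.27 on the FHH arrays, 6.66, 6.75 and 6.57 on the SD arrays and 5.81, 5.37 and 6.13 on the PCK arrays. It was 2.89-fold above FHH, with a wider spread between arrays than the other leading genes (± 0.16, SE of each difference). Thrsp, a nuclear protein induced with lipogenesis, read 9.18, 9.22 and 9.29 on the FHH.Pkhd1 arrays, 8.56, 8.46 and 8.46 on the FHH arrays, 7.15, 7.09 and 7.03 on the SD arrays and 6.36, 6.71 and 6.71 on the PCK arrays, and its other 2 detected probe sets gave 0.85 and 0.80. They were the 2 genes called among 33 of lipogenesis and sterol synthesis, with 0 called lower. Over all genes 0.211% were called higher and 0.524% lower. None of the 28 members that earlier results had not named was called. Of the 33, 21 had their highest mean in FHH.Pkhd1 and 2 their lowest, beside 4072 and 2297 of all 10883 genes. The medians were 0.08 against FHH, 0.12 against SD and 0.31 against PCK. Fasn (smallest difference 0.48), Fads2 (0.43), Scd2 (0.37) and Elovl6 (0.31) were not called. Genes of fat cells were measured beside this group. Car3, a carbonic anhydrase abundant in fat, was the 1 call among 16 adipocyte genes (0.69 ± 0.06, SE). None of the 14 adipocyte genes that earlier results had not named was called. The mean over the 19 measured fat cell genes was 7.45 to 7.49 on the FHH.Pkhd1 arrays and 7.42 to 7.44 in FHH, against 6.95 to 6.99 in SD and 7.00 to 7.04 in PCK. The part of fat cells in the values of Scd and Thrsp was not tested.

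The remaining higher genes had varied roles. Dnajc7, a co-chaperone of the heat shock proteins, read 9.75, 9.65 and 9.65 in FHH.Pkhd1 and 8.39 to 8.79 elsewhere, with SD the nearest pool (0.92 ± 0.06, SE). Prrc2a, an RNA-binding protein, read 8.01 ± 0.10 (SD over 3 arrays) against 6.65 to 7.13, and Pbx2, a homeodomain cofactor, read 8.75, 8.72 and 8.70 against 7.75 to 8.01. Retreg3, a receptor of endoplasmic reticulum turnover, read 8.16, 8.16 and 8.13 against 7.04 to 7.42. Rab5c, a small GTPase of early endosomes, read 10.29, 10.39 and 10.39 against 9.30 to 9.67. The 3 arrays of FHH.Pkhd1 were above all others for each of these 5 genes, but Dnajc7 and Retreg3 lost their calls when probe sets were averaged. Rora, a nuclear receptor of the circadian clock, was called (0.70 ± 0.09, SE), but another of its probe sets lay between the other pools. S100a9, a calcium-binding protein of neutrophils, read 5.93, 5.81 and 5.71, close to the detection level, and 13 of the 15 neutrophil and lymphocyte genes with a probe set were below it in FHH.Pkhd1. S100a9, Acadsb, Lsm14b and Akr1b7 passed the filter on low values through FHH.Pkhd1 alone, so they could only have been called higher. The other higher genes had smallest differences of 0.60 to 0.70: Lsm14b, an RNA-binding protein (0.70), the cytochrome P450 Cyp2f4 (0.69), the actin regulator Wasf2 (0.69), the ubiquitin-conjugating enzyme Ube2s (0.67), the microtubule protein Eml2 (0.62), the secreted ligand Bmp3 (0.60) and the receptor tyrosine kinase Erbb2 (0.60). Eml2 was not called without FHH replicate 1 or FHH.Pkhd1 replicate 2, Bmp3 without FHH replicate 3, and Erbb2 without PCK replicate 3. Bmp3 and Erbb2 were also not called without FHH.Pkhd1 replicate 1 or 3.

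Most markers of kidney cell types gave no call in limma, where over all genes 0.524% were called lower and 0.211% higher. Counts at the looser limit, an unadjusted p under 0.05 in all 3 comparisons, stand beside 6.75% lower and 11.9% higher over all genes. Of 35 proximal tubule genes tested 0 were called, and 6 were lower and 5 higher at the looser limit, with medians of -0.02, -0.07 and -0.00 against FHH, SD and PCK. Their mean signal was 11.43 to 11.47 on the FHH.Pkhd1 arrays and 11.47 to 11.52 on the other 9. The largest lower value among them was that of Slc5a2, the glucose carrier SGLT2 (smallest difference -0.35). None was called either among principal cell (15 tested), intercalated cell (10), thick limb and distal tubule (13), podocyte (9), endothelial (12), macrophage (12), smooth muscle (9), urothelial (8) or red cell (7) genes. At the looser limit the principal cell genes held 1 lower and 7 higher, the intercalated cell genes 0 and 5, thick limb and distal tubule 0 and 4, podocyte 0 and 3, endothelial 0 and 2, macrophage 0 and 1, smooth muscle 0 and 5, urothelial 1 and 0 and red cell genes 0 and 1. The principal cell medians were 0.25, 0.43 and 0.21 and the intercalated cell medians 0.20, 0.47 and 0.07, above those of all genes. Over all genes tested 4072 of 10883 had their highest mean in FHH.Pkhd1. In the cell cycle list 26 of 32 genes did and 0 were called, with medians of 0.20, 0.16 and 0.45 and with 1 lower and 15 higher at the looser limit. Mcm6, a subunit of the replicative helicase, came nearest to a call (0.58). Of 39 extracellular matrix genes 22 had their highest mean there and 0 were called, with 2 lower and 15 higher at the looser limit.

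Genes of tubule injury and repair gave 4 lower calls and 1 higher of 25, beside 0.524% lower and 0.211% higher over all genes. The lower ones were Tff3, Trpv1, Rarres1, a retinoid-induced membrane protein (-0.68 ± 0.07, SE), and Gdf15, a stress-induced cytokine (-0.61 ± 0.07), which was no longer called without FHH replicate 1. Fgb, the beta chain of fibrinogen, was higher (0.61 ± 0.06), but was not called with arrays centred on their median or after quantile normalization. The medians over the 25 were -0.03 against FHH, 0.00 against SD and -0.42 against PCK. None of the 16 members of this list that earlier results had not named was called. Havcr1 (KIM-1), a marker of injured proximal tubule, stood at 6.07 in FHH.Pkhd1, 6.10 in SD, 7.00 in FHH and 9.25 in PCK and was not called. Among 23 interferon response genes 13 had their lowest mean in FHH.Pkhd1, beside 2297 of all 10883 genes. The 1 called gene was the GTPase Igtp (-0.65 ± 0.05, SE), a call lost when its probe sets were averaged. None of the 22 members that earlier results had not named was called. At the looser limit 8 of the 23 were lower and 1 higher. None of 30 genes of cystic disease and the cilium was called (limma), 3 were lower and 4 higher at the looser limit, and their medians were 0.00, 0.05 and 0.08. The immediate early genes had 0 called of 20, with 3 lower and 2 higher at that limit.

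The other lists gave few calls, given here beside 0.524% lower and 0.211% higher over all genes. Of glucuronidation enzymes 2 of 6 tested were lower (Ugt2b35 and Ugt2b7); Ugt2b7 was not called with the filter raised to the 50th percentile. Of 14 aldo-keto reductases the 3 Akr1c genes were lower and Akr1b7 was higher. Cyp4a8 was the 1 call among 22 cytochromes P450 and epoxide hydrolases. Of 24 steroid and retinoid dehydrogenases Dhrs7l1 was lower and Hsd3b1 higher. Of 20 plasma carrier and acute-phase proteins Pzp and Azgp1 were lower and Fgb higher, and Rora was the 1 call among 19 clock genes. Of the members of these lists that earlier results had not named, only Ugt2b7 and Rora were called. None of 9 such aldo-keto reductases, 20 cytochromes P450 and epoxide hydrolases, 22 dehydrogenases and 14 plasma proteins was.

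Chromosome 9, which carries the transferred segment, held 2 of the 57 lower genes among 428 tested (0.467%) and 0 of the higher genes. Over all genes 0.524% were called lower and 0.211% higher. Adgrf1, an adhesion G protein-coupled receptor, lay 27 protein-coding genes before Pkhd1 in the GRCr8 order (-0.65 ± 0.07, SE, against FHH). Its mean of 5.49 in FHH.Pkhd1 was below the detection level, and its differences from SD and PCK were -1.58 and -1.81. Adgrf1 was not called without FHH.Pkhd1 replicate 1. Nif3l1 lay 199 genes after Pkhd1 (-0.67 ± 0.07). The extent of the transferred segment was not known here, so whether either gene lies in it was not tested. Neither was called when a gene's probe sets were averaged. Mcm3, a helicase subunit 3 genes after Pkhd1, had a smallest difference of 0.42 and was not called. No probe set carried the symbol Pkhd1, so the mutated gene gives no check of the strain labels. The largest shares of lower genes were on chromosome 14 (6 of 361) and chromosome 17 (5 of 306), the latter holding the 3 Akr1c genes. Those of higher genes were on chromosome 20 (2 of 327) and chromosome 2 (4 of 701).

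Other detected probe sets of the called genes mostly pointed the same way. Sets below the detection level in every pool were left out of the counts, and no share over all genes was taken. Of 14 other detected sets for 10 lower genes, 13 were lowest in FHH.Pkhd1, 1 lay between the other pools, and 4 passed 1.5-fold. Of 5 such sets for 4 higher genes, 4 were highest in FHH.Pkhd1 and passed 1.5-fold, and 1 lay between. Among the 4 was the second Star set, which was detected through FHH.Pkhd1 alone. The undetected sets of Fgb, Ube2s, Retreg3 and Dnajc7 did not have their highest mean in FHH.Pkhd1.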

How the data were processed

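Log2 probe set signals of 12 arrays (4 pools, 3 arrays each) were used as deposited by the authors, whose tools were RMA and Partek 6.2, as listed per the submitters' processing notes. Details of normalization across arrays are not given in the sources used here. Of 31099 probe sets, 57 were controls, 20826 carried 1 gene symbol, 436 several and 9780 none. Symbols were matched to GRCr8 gene records for 20812 probe sets, giving 14204 genes, 1 probe set each (highest mean). Genes were tested if their highest pool mean reached 5.75, leaving out 3321.

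The 12 arrays were fitted together with limma 3.58.1 (R 4.3.3), 1 mean per pool, with p-values adjusted over 10883 genes per comparison. The script was tested on simulated data. Named genes were the 15 largest called genes per direction without placeholder symbols, up to 4 called genes of each list (otherwise 2 members with the largest values), the 4 families and called genes on chromosome 9; Kap, Odc1, Gdf15, Smim7, Rbbp9, Qng1, Proc and other genes outside this rule were chosen after their values were seen. The members, lists and tests were chosen with earlier results of these data known. Promoter windows came from RefSeq (GRCr8). Alternatives covered the fold limit, filter, scaling, probe set choice, variance model, replicate block and each array left out.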

Additional observations from a re-analysis of the deposited data

How the results depend on the processing

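Over 24 alternatives no called gene changed direction, and 46 of the 80 (34 lower, 12 higher) kept their call in all but the 2-fold limit. Probe set alternatives could alter the values of only 18 lower and 8 higher called genes, those with more than 1 probe set. The 20 calls lost on averaging were all among these. With a 2-fold limit 17 genes were lower and 3 higher, and with no fold limit 558 and 848. Keeping the most variable probe set gave 70 lower and 58 higher genes, and averaging a gene's probe sets gave 43 and 22, with 20 of the 80 lost: Rbbp9, Tprkb, Qng1, Utp6, Hnmt, Adra2b, Jchain, Nif3l1, Basp1, Adgrf1, Igtp, Igfbp3, Spns2, Ralyl, Rnls, Fgb, Ube2s, Rora, Retreg3 and Dnajc7. With the filter at the 50th percentile Ugt2b7, Jchain, Ralyl, Lsm14b, Acadsb and S100a9 lost theirs. Leaving out 1 array at a time gave 55 to 60 lower and 22 to 31 higher genes, and 15 of the 80 lost their call at least once. Scaling, filter and variance alternatives stayed within 1.5 times the main counts, though LOC102550354, Tnfrsf11b, Ralyl, Erbb2, Bmp3 and Fgb lost their calls after quantile normalization, and Erbb2 and Fgb after median centring. The replicate block gave 57 and 23, the same genes. The deviations of same-numbered arrays from their pool means had r over 0.1 in 6 of 18 pairs (range -0.364 to 0.357). Differently numbered arrays were not compared, so whether the numbers pair the arrays was not tested. The cause of the shifts between alternatives was not tested either. Differences among genes below the detection level of 5.75 are limited by signal near the lower end of the scale.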
